A study of Mus musculus with 10 samples.

Results

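The wild-type liver transcriptome was described here against a pooled mouse reference RNA. The members were the 5 two-colour Agilent arrays of livers labelled wt/wt at the glucagon receptor locus, chosen by title, out of 10 arrays in the series. The other arrays, from livers lacking the receptor, were not used. Of the 5 livers, 3 came from males (WT 1, WT 2 and WT 5) and 2 from females (WT 3 and WT 4), and the labels give neither age, strain, diet nor time of day. Liver RNA was labelled with Cy5 and the Universal mouse reference from Stratagene with Cy3 on every array, so that each value is a log2 ratio of liver over reference for one probe. The reference was 1 preparation and dyes were never swapped, so tissue and dye cannot be told apart, and each test measures the spread between livers but not that of the reference.

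The liver makes most plasma proteins, clears ammonia through the urea cycle, exports glucose and ketone bodies between meals, and turns cholesterol into bile acids and foreign compounds into soluble products. Most of this work is done by hepatocytes, long-lived cells that rarely divide, next to Kupffer cells (resident macrophages), sinusoidal endothelial cells, stellate cells and bile duct cells. The reference is a pool of RNA from mouse cell lines, and such lines divide in culture. A ratio in whole tissue cannot separate fewer cells of a type from less RNA per cell.

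Between 23607 and 31680 of the 45018 spots per array were well above background in Cy5 and between 27831 and 33385 in Cy3, and none was saturated. Pairs of livers correlated at 0.952 to 0.988 over all probes other than controls, including those below background. Along principal component 1, with 61.4% of the variance, males lay between -23.42 and -6.61 and females at 20.74 and 28.73. WT 3 and WT 4, the only females, shared a slide, and the males lay on 2 other slides, so sex and slide cannot be fully told apart. WT 4 stood apart in shape: among genes detected in both channels, its ratios had a slope of 0.945 on the mean of the other livers, against 0.993 to 1.02 for the other livers. Of 240 genes with a mean ratio of at least 6 in the other livers, 213 were lower in WT 4, and the median shift over all 240 was -0.33. The added control transcripts E1A_r60_1 and E1A_r60_a20 were taken as equal in both channels. That was inferred from the scanner software's own line through all such controls, since the labels do not say how they were added. Their mean log2 ratios were -1.03, -0.94, -1.97, -1.44 and -0.97 in WT 1 to WT 5. All statements of higher and lower below are relative to the median gene. Centred on these controls instead, the median of all genes moved from -0.02 to 1.25.

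A gene was called when its mean log2 ratio was at least 1 in size (2-fold) and its adjusted p was below 0.05 (limma, mean against 0, two-sided, Benjamini-Hochberg). Of 18517 genes tested, 3336 were called higher in liver (18.0%) and 3652 lower (19.7%). On the scale of the added controls the split was 10978 higher and 996 lower. Without the fold limit 15861 genes passed the adjusted p alone. The directions differed in reach: 630 genes were at least 16-fold higher and 116 at least 16-fold lower, and at 64-fold the numbers were 265 and 5. Of the genes tested, 14723 were well above background in both channels on all 5 arrays, 163 in the liver channel with no detection in the reference, and 564 in the reference channel with no detection in liver. The other 3067 were of mixed detection. A gene that passed the filter through 1 channel alone had to lie on that channel's side, so counts in lists rich in such genes describe that choice as well.

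The highest ratios belonged to genes of hepatocyte metabolism and plasma protein synthesis. Fabp1, the fatty acid binding protein of liver (probe on chromosome 6, 71222913 to 71222972, in the mm7 build of the array files), had log2 ratios of 10.73, 10.69, 10.68, 9.57 and 10.52 in WT 1 to WT 5. Its mean was 10.44 ± 0.49 (SD, n = 5; limma adjusted p = 6.59e-10), or 1387-fold, with WT 4 about 1 log2 unit under the other livers. Next came Akr1c6, a hydroxysteroid dehydrogenase, at 10.28 ± 0.41, and Ambp, the precursor of the plasma proteins alpha-1-microglobulin and bikunin, at 10.04 ± 0.33. Pck1, the enzyme that commits oxaloacetate to glucose production (chromosome 2, 172903552 to 172903615), lay at 9.81, 9.86, 10.24, 9.57 and 9.85, a mean of 9.86 ± 0.24. Rgn reached 9.76 ± 0.40 and the antithrombin gene Serpinc1 9.65 ± 0.49. Others among the highest genes measured in both channels lay between 9.32 and 9.93: the fibrinogen chain gene Fgg, the complement protease gene Cfi, Apoh, Pon1, Aadac, Mup5, the urea cycle gene Cps1 and the bile acid uptake carrier gene Slco1b2. WT 4 was the lowest of the 5 livers for each of these genes.

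At the other end stood genes of mesenchymal and dividing cells. S100a4, a calcium-binding protein of motile mesenchymal cells (chromosome 3, 90736122 to 90736182), had log2 ratios of -7.22, -7.41, -7.48, -7.13 and -7.19, a mean of -7.29 ± 0.15 (SD, n = 5; limma adjusted p = 1.36e-10), or 156-fold lower. S100a6 followed at -7.07 ± 0.24, the stearoyl-CoA desaturase gene Scd2 at -6.20 ± 0.23, the intermediate filament gene Vim at -6.02 ± 0.24, Spp1 at -5.73 ± 0.09 and the collagen chain gene Col1a1 at -5.68 ± 0.27. Col1a1 had 2 further probes, of which 1 gave the same call. The proliferation marker Mki67 (chromosome 7, 132094802 to 132094861) lay at -5.45, -5.61, -5.57, -4.85 and -5.39, and its second probe at -4.98. Also among the 15 lowest were the kinetochore motor gene Cenpe (-5.41 ± 0.34), the condensin gene Ncapg (-5.20 ± 0.34), the galectin genes Lgals1 (-5.52 ± 0.22) and Lgals3 (-5.21 ± 0.71), Il1rl1 (-5.29 ± 0.13), the mesothelial gene Msln (-5.27 ± 0.33), the serine synthesis gene Psat1 (-5.21 ± 0.26) and Anxa1 (-5.21 ± 0.07). The 2 other Cenpe probes were also called lower, at -2.59 and -1.39, and the other Ncapg probe at -2.57. Lgals3 was less far from the reference in WT 4 (-3.98) than in the other livers, which spanned -5.67 to -5.21.

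**Figure D1:**
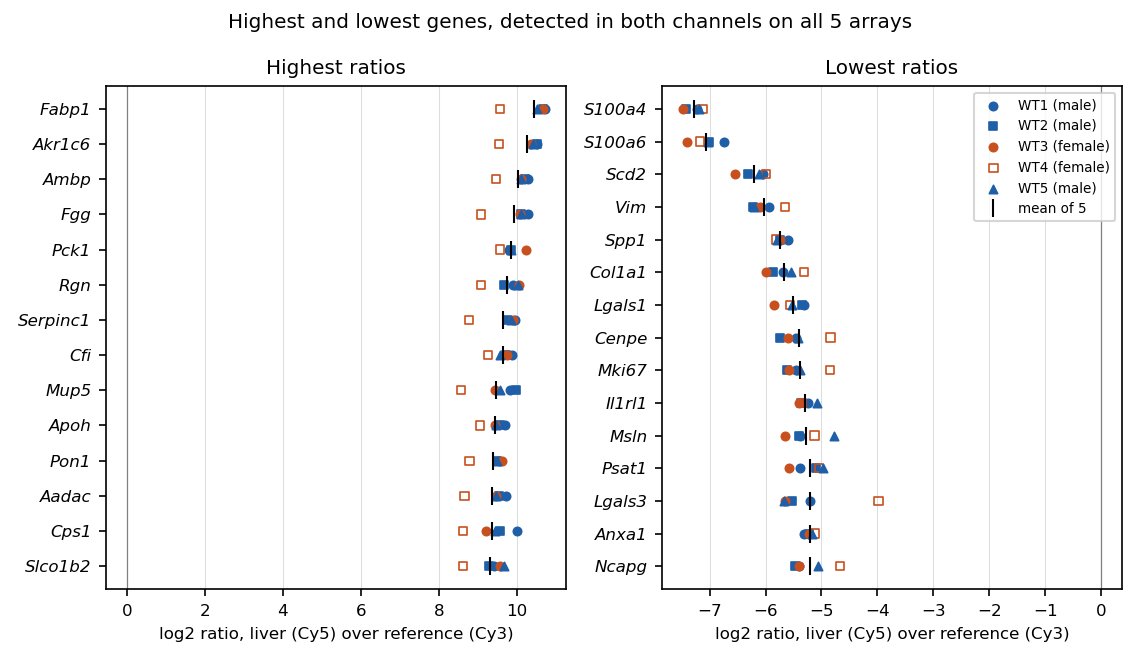
Log2 ratios of liver over reference (horizontal axis) for genes among the 15 highest and the 15 lowest measured in both channels, 1 symbol per liver (males blue, females orange) and a black tick at the mean of 5. The open squares of WT 4 lie left of the other livers in every row of the left panel.

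Where one channel was well above background on no array, the ratio is only a bound. It sets the brighter channel against the higher of the dim probe's own signal and the lowest detected signal of each array. Genes of mixed detection are given as mean ratios without a bound. On the liver side the largest bounds were at least 160-fold for Leap2, an antimicrobial peptide and ghrelin receptor antagonist, at least 149-fold for both the succinate receptor gene Sucnr1 and the glucuronosyltransferase gene Ugt2b1, and at least 123-fold for Plbd1. Acot12 (at least 97.3-fold), Kcnn2 (54.4), Sult1b1 (50.6), the clotting factor gene F5 (50.3), the complement gene C9 (47.4) and Kynu (40.3) completed the 10 largest. On the reference side the interferon-inducible gene Ifi202b was at least 99.7-fold lower in liver. It was followed by Hoxc9 (at least 27.6-fold), the mitotic checkpoint kinase gene Bub1 (25.9), Foxc1 (17.6), Ska1 (17.6), Ptx3 (17.0), Krt20 (16.4), Trim59 (14.3) and Fgf7 (13.4), and by Foxf2, whose bound exceeded its measured mean of 13.2-fold. These 20 genes thus include hepatocyte products on one side and mitotic, homeobox and mesenchymal genes on the other.

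The labelled tissue was checked against its defining markers. Of 13 hepatocyte markers listed, 12 were tested and all 12 were called higher, with a median log2 ratio of 6.77 (6.67 to 6.88 across the livers), against -0.02 over all genes tested. Cps1 (9.37 ± 0.51), the fibrinogen gene Fgb (8.05 ± 0.36), Apob (8.0 ± 0.18) and Cyp2e1 (7.55 ± 0.21) were the highest of them. The albumin gene Alb stood at 5.98 ± 0.40.

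Genes for secreted plasma proteins were far above the reference. All 26 tested genes of plasma carriers and protease inhibitors were called higher (median 7.33, the highest of the lists), led by Ambp, Apoh (9.45 ± 0.24), the vitamin D carrier gene Gc (8.71 ± 0.19) and the retinol carrier gene Rbp4 (8.50 ± 0.32). All 24 coagulation genes were called higher (median 6.42), among them Fgg (9.93 ± 0.48), Serpinc1, Proz (8.92 ± 0.38) and the kininogen gene Kng1 (8.15 ± 0.25). Of 23 complement genes 22 were called higher (median 5.57), with Cfi at 9.64 ± 0.24, C4bp at 8.58 ± 0.18, Hc, which encodes C5, at 8.46 ± 0.33 and C8a at 7.71 ± 0.62. A second C4bp probe was not called. Apolipoproteins and lipoprotein assembly had 17 of 18 called higher (median 5.69), among them Apof (8.68 ± 0.13), Apob, Apoe (7.62 ± 0.15) and Apoc1 (7.45 ± 0.39). The 4 major urinary protein genes tested, Mup5 (9.48 ± 0.55), Mup3 (7.52 ± 0.22), Mup1 (6.59 ± 0.29) and Mup4 (5.69 ± 0.12), were all higher. Their order depends on the probe: the 2 other Mup1 probes lay at 10.115 and 10.169, above Mup5, and the other Mup3 probe at 4.92. That family is made of near-identical copies, so a probe may read several of them, and 17 of the 21 listed members had no probe matched by name.

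Acute phase genes were mixed, with 11 of 16 called higher and 2 lower (median 3.56). Fgl1 (7.66 ± 0.32), the orosomucoid gene Orm2 (6.98 ± 0.21) and the serum amyloid genes Saa4 (6.77 ± 0.34) and Saa2 (5.20 ± 0.23) were highest. The second Fgl1 probe was called higher at 1.94. The metallothionein genes Mt2 (-3.10 ± 2.15) and Mt1 (-2.88 ± 1.55), which encode zinc-binding stress proteins, were the 2 called lower, and differed widely among livers as described below. A second Mt1 probe (-0.15) was not called. In iron handling 13 of 18 were called higher and 1 lower (median 3.21). The heme carrier gene Hpx (8.20 ± 0.31), the transferrin gene Trf (8.06 ± 0.23), Tfr2 (6.90 ± 0.21) and the hepcidin regulator gene Tmprss6 (5.8 ± 0.07) were high, while Tfrc, the transferrin receptor of dividing cells, was at -1.32 ± 0.62.

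The promoters of the genes at the opposite ends differed in composition. RefSeq promoter windows (GRCm38.p6, 250 bases before to 50 after the start) matched 12107 of the 18517 genes by symbol and gave 15280 promoters. The median number of CG dinucleotides was 5 in the 556 promoters of genes at least 16-fold higher in liver, 4 in the 82 promoters of plasma carrier, lipoprotein, coagulation and complement genes, 19 in the 9233 promoters of uncalled genes, and 25 in the 31 promoters of cell cycle genes. It was 18 over the promoters of all genes tested and 7 over all 32851 promoters of the table. In the 250 bases before the start, on either strand, 8 motifs were searched. CAAAGTCCA, an HNF4 site, was held by 2.52% of the promoters of genes at least 16-fold higher, none of the 82 plasma protein promoters, 0.399% of those of all genes tested and 0.384% of the whole table. The TATA box letters TATAAA were in 17.4% of the promoters of genes at least 16-fold higher, 8.67% of those of genes tested and 12.4% of the table. CCAAT, the box bound by NF-Y, was in 71% of cell cycle promoters, 34.7% of those of genes tested and 33.8% of the table, and TTTGAA, the cell cycle homology region, in 25.8%, 11.9% and 16%. TTGCGCAA, a C/EBP site, was in 0.18% of the promoters of genes at least 16-fold higher, 0.242% of those of genes tested and 0.164% of the table. In the same 3 sets, TTCNNNGAA, a STAT site, was in 8.09%, 6.15% and 7.02%, the metal response core TGCGCNC in 6.47%, 19.1% and 12.5%, and the Ets core CCGGAAG in 2.16%, 11.3% and 6.91%. These shares are descriptions, since CG-poor and CG-rich windows hold different letters by composition alone.

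The 150 bases before the start are shown for 4 plasma protein genes, because this group had the fewest CG dinucleotides of those compared here. Capitals mark CG. Fgb lies on the minus strand at chr3:83049864-83050013, Gc on the minus strand at chr5:89457899-89458048, Alb on the plus strand at chr5:90460720-90460869 and Ambp on the minus strand at chr4:63154173-63154322 (GRCm38.p6). Alb and Ambp each hold 2 CG in this stretch, and Fgb and Gc hold none.
Fgb: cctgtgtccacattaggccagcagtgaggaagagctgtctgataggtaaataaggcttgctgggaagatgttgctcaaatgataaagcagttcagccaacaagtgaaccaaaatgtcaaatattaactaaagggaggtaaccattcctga
Gc: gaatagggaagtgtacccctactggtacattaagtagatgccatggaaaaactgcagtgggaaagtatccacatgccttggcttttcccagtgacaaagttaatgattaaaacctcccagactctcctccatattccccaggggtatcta
Alb: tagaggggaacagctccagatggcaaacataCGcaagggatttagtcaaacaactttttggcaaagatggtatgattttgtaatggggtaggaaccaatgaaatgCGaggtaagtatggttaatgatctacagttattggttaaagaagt
Ambp: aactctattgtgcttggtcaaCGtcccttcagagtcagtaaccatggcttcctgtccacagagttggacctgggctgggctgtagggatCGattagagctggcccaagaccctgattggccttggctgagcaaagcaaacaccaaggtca

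Enzyme and carrier genes of hepatocyte metabolism were higher almost throughout. Of 43 tested genes of amino acid breakdown all were called higher (median 5.87), among them the pyrimidine and beta-alanine pathway gene Upb1 (8.88 ± 0.25), Dmgdh (8.19 ± 0.29) and the lysine pathway gene Aass (8.08 ± 0.36). All 8 urea cycle genes were called higher (median 5.78), with Cps1 followed by Otc (8.73 ± 0.19), Arg1 (7.31 ± 0.27) and Nags (7.10 ± 0.13). In glucose production 11 of 12 were higher (median 5.96), among them Pck1, Fbp1 (8.99 ± 0.34) and the glucose carrier gene Slc2a2 (6.98 ± 0.19), and Pck2, the mitochondrial form, was the member called lower at -3.95 ± 0.13. All 29 hepatocyte transporter genes were higher (median 5.10), among them Slco1b2, the fatty acid carrier gene Slc27a2 (8.39 ± 0.18) and the bile salt export pump gene Abcb11 (7.89 ± 0.23).

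Cytochrome P450 genes of families 1 to 4 had 39 of 43 called higher and 2 lower (median 6.10). Cyp3a41a (9.19 ± 0.44), Cyp3a16 (8.82 ± 0.24), Cyp2a4 (8.60 ± 0.26) and Cyp2c29 (8.33 ± 0.22) led the list, while Cyp1b1 (-3.19 ± 0.22) and Cyp2s1 (-2.94 ± 0.23), forms found outside liver, were lower. Cyp1b1 was well above background in 2 of 5 livers, and its second probe was not called. Close relatives in these families can share a probe. Among conjugation enzymes 37 of 43 were called higher and 1 lower (median 4.27): Ugt2b5 (8.98 ± 0.34), Ugt2a3 (8.56 ± 0.32), Ugt2b38 (8.44 ± 0.25) and Sult1a1 (8.08 ± 0.47) were highest and Mgst2 (-3.55 ± 0.21) was the lower one. Bile acid synthesis had 13 of 15 higher and 1 lower (median 4.55). Cyp7b1 (7.77 ± 0.79), the conjugating enzyme gene Baat (7.64 ± 0.33), Slc27a5 (6.79 ± 0.21) and the cholic acid enzyme gene Cyp8b1 (5.47 ± 0.60) led it, and Ch25h, which makes 25-hydroxycholesterol, was at -1.41 ± 0.31. The reference was well above background on 2 of 5 arrays for Cyp8b1, and liver on 1 of 5 for Ch25h.

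Lipid pathways were higher by smaller amounts. Fatty acid oxidation and ketone synthesis had 27 of 28 called higher (median 2.77), among them Acsl1 (5.71 ± 0.16) and Cyp4a10 (5.62 ± 0.37). The fasting hormone gene Fgf21 was the member called lower (-1.09 ± 0.43), and it moved to 0.18 when centred on the added controls. Its second probe (-0.91) was not called. Fatty acid and triglyceride synthesis had 18 of 22 higher and 1 lower (median 2.16), with the elongase gene Elovl2 (6.91 ± 0.28), the carbohydrate-sensing factor gene Mlxipl (6.02 ± 0.20), Dgat2 (5.48 ± 0.10) and Thrsp (5.12 ± 0.19) at the top and Scd2 at the bottom. Cholesterol synthesis had 17 of 22 higher and 1 lower (median 2.25). Sc5d (5.00 ± 0.17), Tm7sf2 (4.88 ± 0.17) and Ebp (3.75 ± 0.11) were highest, and the factor gene Srebf2 was at -1.32 ± 0.35, a call that none of its 3 other probes gave.

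Both zones of the liver lobule were represented. Genes known from periportal hepatocytes, near the incoming blood, were called higher in 19 of 19 (median 6.34), including Pck1, Cps1, Etnppl (8.06 ± 0.44) and Spp2 (7.32 ± 0.19). Pericentral genes, near the central vein, were called higher in 18 of 20 (median 4.24), including Rgn, Cyp2e1, Gulo (6.39 ± 0.18), which makes vitamin C, and Cyp2c37 (6.14 ± 0.26).

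For steps of metabolism encoded by several genes, the form typical of liver and the other forms usually lay on opposite sides of the reference. Of the 19 liver forms 18 were called higher and 1 lower (median 6.98), and of the 26 other forms tested 3 were called higher and 17 lower (median -1.54). In 16 of the 17 steps with both kinds tested, the ratio of the liver form exceeded that of every other form. Of the forms found outside liver, the hexokinases Hk1, Hk2 and Hk3 were at -3.14 ± 0.15, -2.45 ± 0.15 and -0.19 ± 0.26 (1.08 for Hk3 on the scale of the added controls), and the aldolases Aldoa and Aldoc at -3.46 ± 0.24 and -0.36 ± 0.45. The glucose carrier of liver, Slc2a2, was at 6.98 ± 0.19 against -4.03 ± 0.23 for Slc2a1 and -1.68 ± 0.13 for Slc2a3. For Slc2a2 the reference was well above background on 2 of 5 arrays.

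Pyruvate kinase gave Pklr, the liver form, at 2.23 ± 0.30 and Pkm, the form of most other cells (chromosome 9, 59706027 to 59706086), at -4.05, -4.15, -4.26, -3.98 and -3.91 in WT 1 to WT 5. Every liver was thus at least 3.9 log2 units under the reference for Pkm, whose second probe stood at -2.92. Hmgcs1, of cholesterol synthesis, was higher at 3.08 ± 0.29. Glycogen enzymes split in the same manner: Pygl (6.52 ± 0.23) against Pygb (-1.78 ± 0.20), and Gys2 (7.40 ± 0.24) against Gys1 (-2.54 ± 0.17).

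In nitrogen metabolism Mat1a was at 7.45 ± 0.20 and Mat2a at -0.78 ± 0.14, with Cps1 at 9.37 ± 0.51 and Cad, which makes carbamoyl phosphate for pyrimidines, at -2.02 ± 0.22. Glucose-6-phosphatase gave G6pc at 6.07 ± 0.17 and the ubiquitous form G6pc3 at -0.92 ± 0.09. For fatty acid binding proteins, Fabp1 stood far above Fabp4 (3.52 ± 0.14), Fabp5 (0.33 ± 0.09) and Fabp3 (-2.74 ± 0.11). Alcohol dehydrogenase gave Adh1 7.59 ± 0.21, Adh5 2.57 ± 0.16 and Adh7 -1.02 ± 0.19 (0.25 on the scale of the added controls), and carnitine palmitoyltransferase gave Cpt1a 2.54 ± 0.21, Cpt1b 0.06 ± 0.26 and Cpt1c -1.30 ± 0.28. Phosphofructokinase was the exception. Pfkl, the form named for liver, was called lower at -2.03 ± 0.23, between Pfkp at -3.63 ± 0.18 and Pfkm at -1.40 ± 0.10. Arg1 (7.31 ± 0.27) and Fbp1 were the 2 liver forms with no other form tested. Other probes gave the same call in 3 of 4 cases for Hk1, 2 of 3 for Cad, 1 of 2 for each of Hmgcs1 and Pfkp, and not for the 1 of Cpt1c (-0.62).

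**Figure D2:**
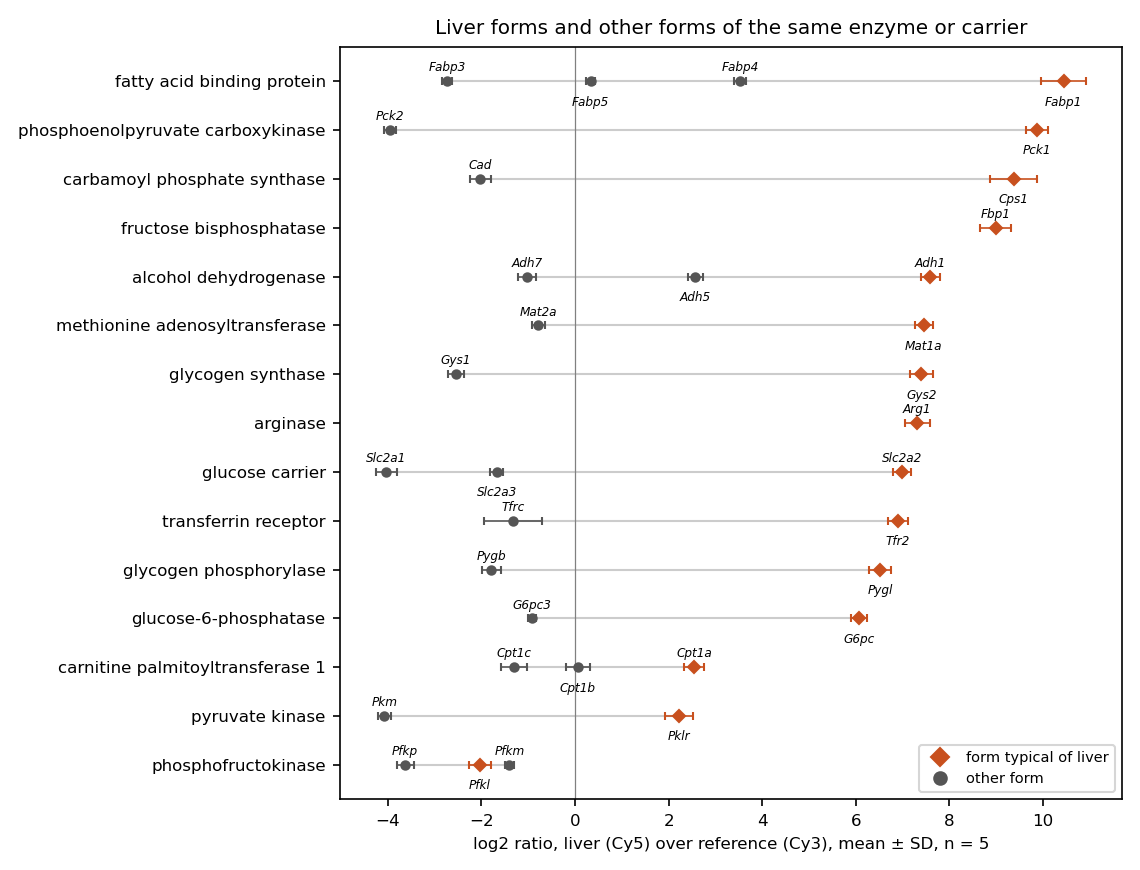
Mean log2 ratio ± SD over 5 livers (horizontal axis) for forms of the same enzyme or carrier in the steps shown, orange diamonds for the form typical of liver and grey circles for the others. The diamond lies right of the circles in all rows that have circles except phosphofructokinase, where Pfkl is at -2.03 and Pfkm at -1.40.

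Among regulators, 22 of 28 liver transcription factor genes were called higher and 1 lower (median 4.11). Hnf4a (6.12 ± 0.24), Mlxipl and the bile acid receptor gene Nr1h4 (5.86 ± 0.28) were among the highest, and Cebpd, an injury-responsive C/EBP factor, was at -2.82 ± 0.33. For Hnf4a the reference was well above background on 3 of 5 arrays, and its 2 other probes were called higher at 1.80 and 2.07. For hormone receptors and growth factor signalling 21 of 26 were called higher and 1 lower (median 2.79). Gcgr, the receptor for the fasting hormone glucagon (chromosome 11, 120647973 to 120648033), was the highest of them, with 8.13, 8.01, 7.94, 7.69 and 8.01 in WT 1 to WT 5. Its mean was 7.95 ± 0.16 (SD, n = 5; limma adjusted p = 1.36e-10), or 248-fold above the reference, and its values in the 2 sexes did not pass the test of a difference (adjusted p = 0.384). Igfbp1 (7.65 ± 1.02), Lifr (6.95 ± 0.35) and the adrenergic receptor gene Adra1b (5.23 ± 0.40) followed, and the receptor gene Igf1r was at -3.01 ± 0.48, with 2 of its 3 other probes giving the same call. The 3 other Lifr probes (1.40 to 1.58) and the other Adra1b probe (1.69) were also called higher, but by far less.

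General cell machinery differed by complex, with ribosomal genes below the reference, most proteasome and chaperone genes uncalled, and part of the respiratory chain genes above it. Ribosomal protein genes were called lower in 30 of 30 (median -1.91, and -2.01 to -1.76 across the livers). Rpl14 lay between -3.41 and -3.18, Rpl13 at -2.58 ± 0.21, Rplp0 at -2.47 ± 0.26 and Rpl32 at -2.33 ± 0.19. On the scale of the added controls the ribosomal median was -0.64 with 4 of 30 called lower. Mitochondrial respiratory chain genes were called higher in 13 of 29 and lower in none (median 0.97, with 29 higher on the scale of the added controls), with the succinate dehydrogenase genes Sdha (2.90 ± 0.16) and Sdhb (1.73 ± 0.13), Ndufb5 (1.66 ± 0.12) and Uqcrfs1 (1.58 ± 0.21) highest. Of 22 proteasome genes none was called in either direction (median 0.12, and -0.16 with median centring of the scanner signals), while 9 above and 6 below the reference passed the adjusted p alone (limma). On the scale of the added controls 17 of the 22 were called higher. Of 21 chaperone genes 1 was higher and 3 lower (median -0.02, with 13 higher on the scale of the added controls): Dnajb9 at 1.32 ± 0.26, and the stress factor gene Ddit3 (-2.17 ± 0.14), Hsp90aa1 (-1.17 ± 0.23) and Hspa8 (-1.0 ± 0.23). Hsp90aa1 and Hspa8 moved to 0.10 and 0.26 when centred on the added controls. The other Hspa8 probe (-0.87) was not called, and of 2 other Dnajb9 probes 1 was. In the mm7 build the Hspa8 probe used lies on chromosome 5 (5787852 to 5787911), and whether it reads Hspa8 alone was not tested.

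Genes of cell division were far below the reference. Of 38 cell cycle genes 36 were called lower and none higher (median -3.08, and -3.21 to -2.93 across the livers), and 5 of them were well above background in no liver. Cenpe, Mki67, Bub1 (at least 25.9-fold lower) and the survivin gene Birc5 (-4.72 ± 0.27) led the list. Of 33 DNA replication genes 30 were lower (median -2.49), with the DNA methylation cofactor gene Uhrf1 at -4.87 ± 0.40, the helicase genes Mcm6 (-4.08 ± 0.35) and Mcm3 (-3.72 ± 0.12) and the nucleotide reductase gene Rrm2 (-3.81 ± 0.47). Against the rest, the replication factor gene Mcm10 was called higher at 3.04, 2.50, 1.01, 0.86 and 2.70 in WT 1 to WT 5, with the 3 males above the 2 females. On the scale of the added controls 27 of the 38 cell cycle and 20 of the 33 replication genes were called lower.

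The 150 bases before the start are shown for 4 cell cycle genes, since CCAAT was more frequent in this list than in all promoters. Capitals mark CCAAT or TTTGAA on either strand. Mki67 lies on the minus strand at chr7:135716380-135716529, Cdc20 on the minus strand at chr4:118437344-118437493, Ccnb1 on the minus strand at chr13:100786487-100786636 and Cenpe on the plus strand at chr3:135212413-135212562 (GRCm38.p6). In liver their mean log2 ratios were -5.37, -4.62, -4.07 and -5.41. Mki67 and Cdc20 each hold 3 matches in this stretch, Ccnb1 2 and Cenpe 1.
Mki67: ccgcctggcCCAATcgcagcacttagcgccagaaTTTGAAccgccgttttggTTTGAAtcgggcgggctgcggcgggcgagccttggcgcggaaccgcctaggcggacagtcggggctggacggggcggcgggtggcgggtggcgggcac
Cdc20: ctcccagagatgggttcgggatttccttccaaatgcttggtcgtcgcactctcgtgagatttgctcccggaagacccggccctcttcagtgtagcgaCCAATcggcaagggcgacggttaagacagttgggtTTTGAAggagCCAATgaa
Ccnb1: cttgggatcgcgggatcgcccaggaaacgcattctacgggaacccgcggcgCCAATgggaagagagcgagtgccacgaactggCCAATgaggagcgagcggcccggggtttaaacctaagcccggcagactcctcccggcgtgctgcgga
Cenpe: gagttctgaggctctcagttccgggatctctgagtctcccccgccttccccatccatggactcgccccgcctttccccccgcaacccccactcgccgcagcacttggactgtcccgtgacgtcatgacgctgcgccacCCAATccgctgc

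Genes of matrix, embryo and other tissues were mostly lower or not detected in liver. Matrix and fibroblast genes were lower in 25 of 27 (median -3.10), led by S100a4, S100a6, Vim and Col1a1. Oncofetal genes, known from fetal liver, were lower in 9 of 12 (median -1.63), with Hmga2 at -4.60 ± 0.11, Dlk1 at -4.35 ± 0.08, Igf2bp2 at -3.44 ± 0.25 and Igf2bp3 at -2.60 ± 0.51, a call that 1 of its 2 other probes gave. Of these 12 genes, 10 were well above background in every liver. Of 26 Hox genes 17 were lower and none higher (median -1.27), and 9 were well above background in no liver. With both channels above background 9 remained, of which 5 were lower. The 4 largest, Hoxc9, Hoxa11, Hoxa10 and Hoxd8, were at least 27.6, 6.7, 6.2 and 4.3-fold lower. On the scale of the added controls the Hox median was -0.01, with 5 higher and 3 lower. Muscle genes were lower in 10 of 21 (median -0.98, which turned to 0.29 on the scale of the added controls), among them Tpm2 (-2.78 ± 0.43), Actc1 (-2.44 ± 0.14), Acta1 (-2.42 ± 0.24) and Myl1 (at least 7.3-fold lower, with a second probe at -0.53 that was not called). One muscle gene, the myosin heavy chain gene Myh2, was called higher at 4.60, 5.11, 3.39, 2.73 and 4.37, again with males above females.

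Keratin and epidermal genes had 5 higher and 5 lower of 20 (median 0.11), beside 18.0% higher and 19.7% lower over all genes tested. On the scale of the added controls 12 were higher and 2 lower. The adhesion genes Cdh1 (4.65 ± 0.35), Dsp (3.16 ± 0.25) and Perp (2.49 ± 0.18) and Lor (1.65 ± 0.17) were higher, and Krt19 (-4.06 ± 0.22), Epcam (-3.82 ± 0.24), Krt7 (-1.87 ± 0.18) and Sprr1a (-1.43 ± 0.34) lower. Germ cell genes had 7 of 18 tested, of which Tnp1 (1.05 ± 0.10) was called (list median -0.03). Neuronal genes had 8 of 18 tested (median -0.30, and 0.97 on the scale of the added controls), with Syt1 at 2.73 ± 0.37, Eno2 at -3.22 ± 0.44 and Stmn2 at -1.46 ± 0.23.

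**Figure D3:**
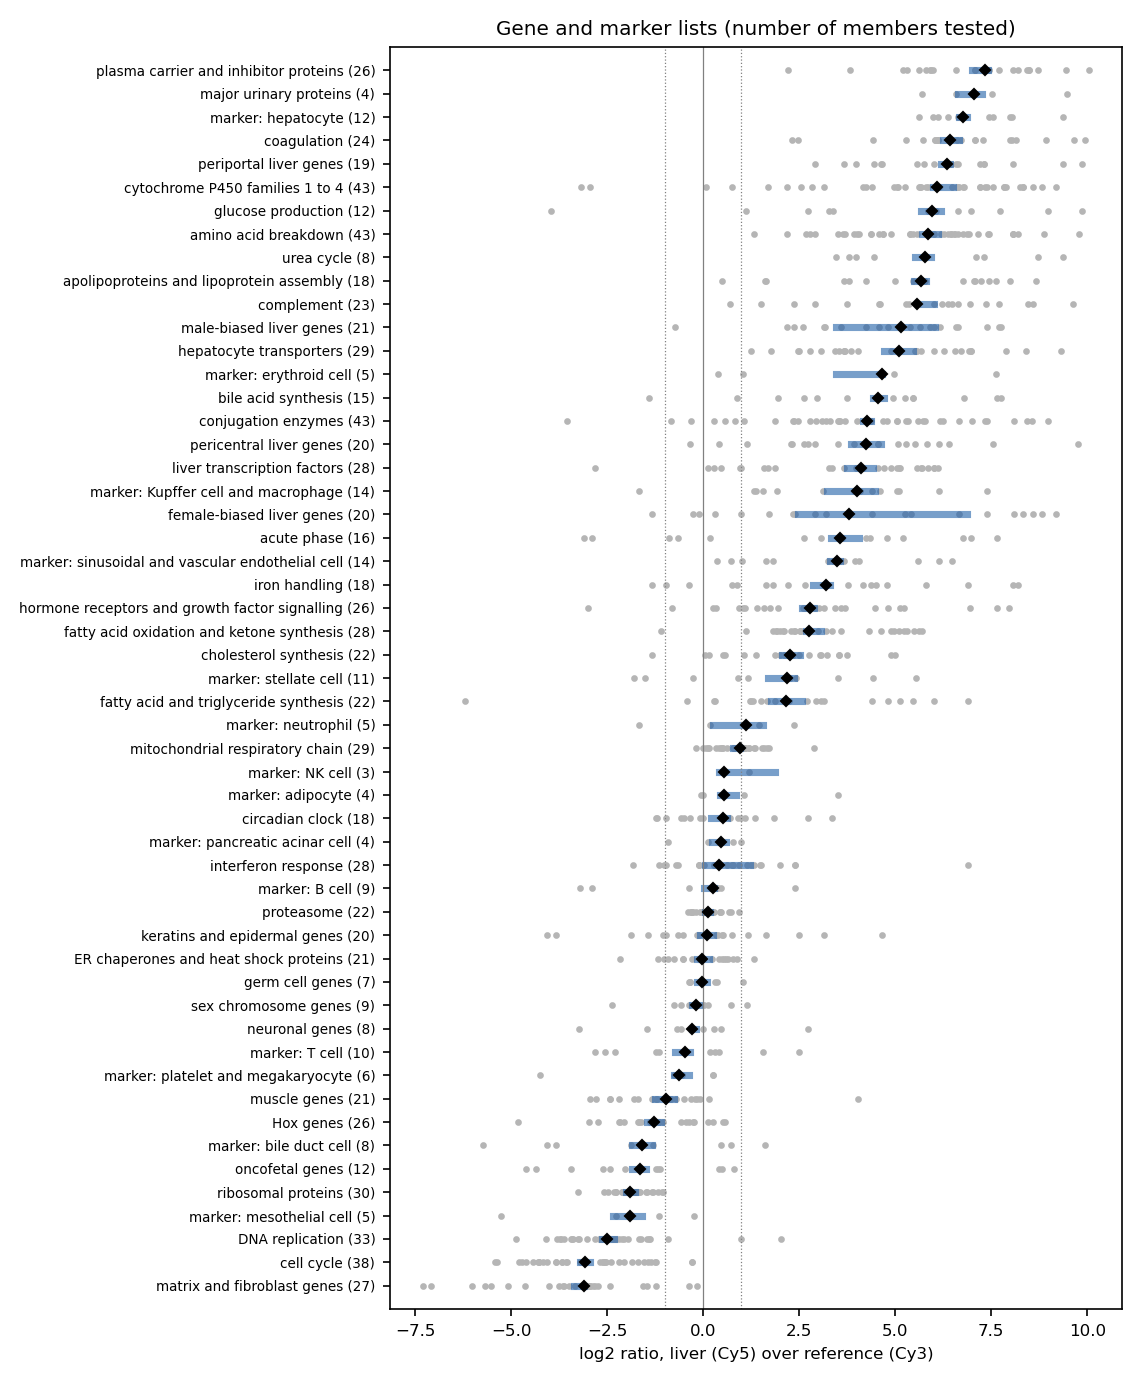
Mean log2 ratios of the tested members (grey dots), their median (black diamond) and the range of that median over the 5 livers (blue bar) for 39 gene lists and 14 cell type marker lists, with dotted lines at the 2-fold limits. Plasma carriers and inhibitors lie at the top with a median of 7.33, cell cycle and matrix lists at the bottom with -3.08 and -3.10, and the widest bar is that of the female-biased list.

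Markers of the other liver cells were measured beside those of hepatocytes. Kupffer cell and macrophage markers were called higher in 13 of 14 (median 4.0), with Cd5l at 7.40 ± 0.20, Clec4f at 6.15 ± 0.15, Vsig4 at 5.10 ± 0.41 and the complement gene C1qc at 5.06 ± 0.20. The lysosomal macrophage gene Cd68 was the member called lower (-1.66 ± 0.30). Sinusoidal and vascular endothelial markers were higher in 12 of 14 and lower in none (median 3.47), led by Gpr182 (6.49 ± 0.29), Ptprb (6.13 ± 0.30), Clec4g (5.60 ± 0.35) and Oit3 (4.06 ± 0.25). Stellate cell markers had 7 of 11 higher and 2 lower (median 2.18): Colec11 (5.55 ± 0.42), Reln (4.43 ± 0.39) and Lrat, the vitamin A storing enzyme (at least 10.3-fold), were high, as was Rgs5 (2.42 ± 0.31), while Des (-1.80 ± 0.27) and Pdgfrb (-1.51 ± 0.28) were lower. Bile duct markers had 5 of 8 lower and Aqp1 higher (1.60 ± 0.29), with a median of -1.59. Spp1, Krt19, Epcam and Krt7 were the 4 lowest.

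Blood cell markers were less uniform, and their counts stand beside 18.0% higher and 19.7% lower over all genes tested. Erythroid markers had 4 of 5 higher (median 4.66), with Hbb-bt at 7.62 ± 0.22, Alas2 at 4.97 ± 1.27, Hba-a1 at 4.66 ± 0.23 and Klf1 at 1.05 ± 0.30. T cell markers had 2 higher and 5 lower of 10 (median -0.48, and 0.79 on the scale of the added controls), with Cd3e at 2.51 ± 0.13 and Zap70 at 1.57 ± 0.35 against Thy1 at -2.80 ± 0.12, Lck at -2.56 ± 0.39, Cd3g at -2.29 ± 0.47 and Cd8b1 at -1.23 ± 0.14 (0.04 for Cd8b1 on that scale). B cell markers had 1 higher and 2 lower of 9 (median 0.27): Ighm at 2.38 ± 0.34, Cd79b at -3.21 ± 0.23 and Ms4a1 at -2.89 ± 0.23. Of 3 NK cell markers tested Nkg7 was called (1.19 ± 0.77), and without WT 4, where it stood at 2.55, its mean of 0.85 was under the fold limit. Neutrophil markers had 3 of 5 higher, S100a9 (2.37 ± 0.39), Csf3r (at least 2.7-fold) and Ltf (1.11 ± 0.73), and S100a8 lower (-1.67 ± 0.33), with a median of 1.11. Of these 5 markers, 1 remained with both channels above background on all arrays, and it was not called (0.17). Platelet markers had 1 of 6 called, Pf4 at -4.24 ± 0.16 (median -0.64, and 0.63 on the scale of the added controls). Adipocyte markers had 2 of 4 higher, Fabp4 and Cidec (1.07 ± 0.22), with a median of 0.54. None of 4 pancreatic acinar markers was called (median 0.46), while 2 above and 1 below the reference passed the adjusted p alone (limma). Second probes of Cd8b1 (0.76), Ighm (0.93) and Ltf (0.98) were not called, and of 2 other Fabp4 probes 1 was. The Cd8b1 probe used lies on chromosome 5 (114364254 to 114364313) in the mm7 build, and whether it reads Cd8b1 alone was not tested. Mesothelial markers had 4 of 5 lower (median -1.91), of which 1, Msln, was above background in both channels on all arrays: Msln, Upk3b (-2.28 ± 0.44), Wt1 (-1.91 ± 0.34) and Upk1b (at least 2.2-fold lower, but at 0.13 on the scale of the added controls).

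Sex was the labelled factor that varied among the wild-type livers. Mouse liver is known to differ between the sexes through the pattern of growth hormone release, which sets many P450, sulfotransferase and carrier genes. In the test of female minus male, 223 genes were higher in females (1.20%) and 290 higher in males (1.57%) at an adjusted p below 0.05 (limma, 2 females against 3 males). The values of the sexes did not overlap in any of these 513 genes, and over all genes tested they did not overlap in 35.7%. The number rests on few livers: without WT 4 it was 62, without WT 3 197, without WT 1 251, without WT 2 339 and without WT 5 1484. Centred on the added controls it was 14962, since those controls themselves lay lower in the females. Both the scanner's own log ratio and median centring gave 122.

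The labels were checked with genes of the sex chromosomes, of which 9 of 10 were tested. Eif2s3y, on the Y chromosome, had log2 ratios of 3.33, 3.31 and 3.45 in the males and -2.21 and -2.22 in the females, a difference of -5.58 (SE 0.11, limma adjusted p = 4.11e-07). Ddx3y differed by -3.96 and Kdm5d by -1.70. Xist, which coats the silent X chromosome of females, was at 1.78 and 1.49 in the females and between -5.52 and -4.42 in the males, a difference of 6.68. Every liver thus matched its label. The 3 other Xist probes had mean ratios against the reference of -1.05 to -0.02, taken over both sexes together. Their difference between the sexes was not tested. None of the 9 was called against the reference as a group mean, and the list median was -0.19 (1.07 on the scale of the added controls).

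Among autosomal genes, the sulfotransferase gene Sult3a1 (chromosome 10, 33660082 to 33660141) stood at 7.76 and 7.06 in the females and at 0.30, 0.50 and 0.40 in the males. Its difference was 7.01 (SE 0.20, adjusted p = 1.77e-06 by limma), and its reference channel was well above background on 1 of 5 arrays. The carrier gene Slc22a26 differed by 6.01. Mfsd2a, which carries lysolipids, differed by 4.02, 9030619P08Rik by 3.43, Nipal1 by 3.42, Cyp4a14 by 3.38 and Cyp2b13 by 3.18. In the other direction Cyp4a12a, an arachidonic acid hydroxylase (chromosome 4, 114709177 to 114709236), stood at 6.30, 6.57 and 6.71 in the males and at 0.76 and 0.84 in the females, a difference of -5.73 (SE 0.15, adjusted p = 1.27e-06 by limma). The acetyltransferase gene Nat8 differed by -4.11, Gstp1 by -3.75, the elongase gene Elovl3 by -3.46, Hsd3b4 by -3.33, the complement gene C6 by -2.95, the asparagine synthetase gene Asns by -2.79 and Ttc39c by -2.55. Cyp4a14 did not pass without WT 4 (3.63, adjusted p = 0.199), without WT 3 (3.13, adjusted p = 0.143) or by the scanner log ratio (3.14, adjusted p = 0.120), and Nipal1 not without WT 4.

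Mt2, a metallothionein, was higher in females, and both groups lay under the reference: -0.31 and -1.42 in females against -4.84, -5.18 and -3.77 in males, a difference of 3.74 (SE 0.44, limma adjusted p = 0.00613). Mt1 differed by 2.71 with the same adjusted p. Neither sex overlapped the other. Without WT 3 the adjusted p of Mt2 was 0.0517 and that of Mt1 0.0568, and without WT 4 that of Mt1 was 0.0551. By the scanner log ratio with all 5 livers they were 0.0559 for Mt2 and 0.062 for Mt1.

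Of 20 tested genes known as female-biased in liver, 14 were higher in females and none in males, and of 21 known as male-biased, 15 were higher in males and 1 in females. These lists were drawn from knowledge of mouse liver with earlier results of these data known. The median ratio of the female-biased list was 6.88 and 6.56 in the 2 females and 2.48, 2.47 and 3.22 in the males. The male-biased list had medians of 6.04, 5.95 and 5.87 in males and 4.04 and 3.45 in females. Many of these genes were above the reference in the mean over all 5 livers, which does not show each sex alone. Of the 20 female-biased genes 14 were called higher in liver, led by Cyp3a41a, Cyp3a16, Cyp2a4 and Cyp2c40 (8.32 ± 0.20). Of the 21 male-biased ones 20 were, led by Cyp7b1, C8a, Ugt2b1 and Nudt7 (6.63 ± 0.88). Among these leading genes, Cyp3a41a (female minus male -0.15), Cyp3a16 (0.08), Cyp2a4 (0.13) and C8a (-1.01) did not pass the limma test between sexes. Tox, in the female-biased list, was lower than the reference (-1.32 ± 0.76), and its second probe (-0.99) was not called. Without WT 4 the counts were 6 female-biased and 8 male-biased genes, and without WT 3 they were 8 and 12. With all 5 livers the scanner log ratio gave 6 and 5, and median centring 10 and 11.

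Interferon response genes also differed by liver. Of 28 tested, 9 were called higher and 3 lower than the reference (median 0.42, and -0.04 with median centring), and 8 were higher in females (28.6% of the list, against 1.20% of all genes tested). The list median was 0.06, 0.20 and 0.12 in the males and 0.79 and 1.21 in WT 3 and WT 4. Iigp1, a resistance GTPase, was the highest at 6.90 ± 0.59, followed by Igtp (2.40 ± 1.28), H2-K1 (2.39 ± 0.24) and H2-D1 (1.99 ± 0.28). Igtp stood at 3.14 and 4.30 in females and 1.36 to 1.61 in males. Ifi44 (-1.83 ± 0.73), Ifit2 (-1.16 ± 0.43) and Oas2 (-1.02 ± 0.42) were the members called lower, and Ifit2 and Oas2 moved to 0.11 and 0.25 when centred on the added controls. Without WT 4 the count higher in females was 3 and without WT 3 it was 7. By the scanner log ratio, and likewise with median centring, it was 2 with all 5 livers. The second probes of H2-D1 (0.56), Ifi44 (-0.60) and Ifit2 (-0.14) were not called.

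**Figure D4:**
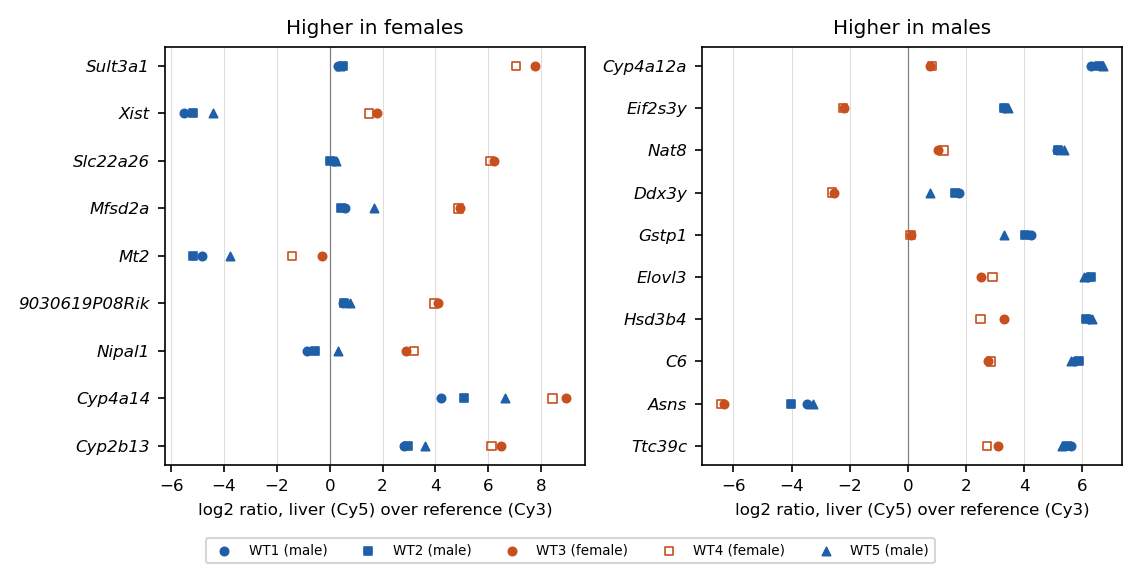
Log2 ratios of liver over reference (horizontal axis) for genes among the 10 with the largest difference in each direction between sexes, 1 symbol per liver. Males (blue) and females (orange) do not overlap in any row, and WT 5 lies nearest the females for Mt2, Mfsd2a and Cyp4a14.

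The liver channel held 5 separate livers in Cy5 and the reference channel 1 RNA in Cy3, so in their spread source and dye cannot be told apart. Among 14698 genes with values in both channels, the median SD across arrays was 0.171 in the liver channel and 0.064 in the reference channel, and 91% of genes had the larger SD in liver. The median SD of the ratio was 0.161 over all 5 livers and 0.137 within sex. Of 14723 genes measured in both channels, 141 had a within-sex SD above 0.5.

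The widest within-sex spread belonged to Cish (chromosome 9, 107031313 to 107031372), a feedback inhibitor of growth hormone signalling. It stood at 3.03, -1.68, 2.45, 0.48 and 1.44 in WT 1 to WT 5, a within-sex SD of 2.11, and it was not called against the reference. Bcl6, a repressor that growth hormone lowers, lay at -0.32, 2.80, -0.67, 1.14 and 0.31. Socs2, another growth hormone feedback gene, was at 1.78, -1.12, 2.35, 1.54 and 0.11, though its second probe averaged -0.68. WT 2 was lowest for Cish and Socs2 and highest for Bcl6. Alas1, the first enzyme of heme synthesis, ranged from 1.5 in WT 2 to 4.51 in WT 1 and was called higher (3.06 ± 1.18). With 5 livers these shared orders are a description.

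For several other genes of wide within-sex spread a single liver, or WT 1 and WT 2 together, stood at an end of the range. Of those named next, Esm1 and Ccl4 met the limit used below for a liver far from the others. Esm1, an endothelial gene, was at 0.44 in WT 5 and between -2.61 and -2.16 in the other livers. In WT 4 the interferon-inducible GTPase gene Tgtp1 was at 4.47, against 0.81 to 1.90, and the chemokine gene Ccl4 at -1.37, against -3.90 to -3.30. Xlr3c, an X-linked gene, was highest in WT 3 at -0.44, against -2.98 to -1.48. Rgs16, which follows feeding and the clock in liver, was at 0.37 and -0.71 in WT 1 and WT 2 and between 2.01 and 2.35 in WT 3, WT 4 and WT 5. WT 1 and WT 2 shared a slide, and its part in this was not tested. Cyp4a14 also belonged to this set.

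Of 18 clock genes tested, 5 were called higher (27.8%) and 2 lower (11.1%), beside 18.0% and 19.7% over all genes tested. Their median ratio was 0.52, and 0.00 with median centring. The list median was 0.50, 0.57 and 0.62 in the males and 0.21 and 0.20 in the females. None of the 18 passed the limma test between sexes after adjustment, and 3 had an unadjusted p below 0.05. Hlf (2.74 ± 0.15), Rora (1.85 ± 0.14) and Per2 (1.34 ± 0.37) were among the higher ones, and Bhlhe41 (-1.23 ± 0.14) and Ciart (-1.21 ± 0.23, well above background in no liver) were the 2 called lower. A second Per2 probe (0.03) was not called. Bhlhe41 and Ciart moved to 0.04 and 0.06 when centred on the added controls.

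**Figure D5:**
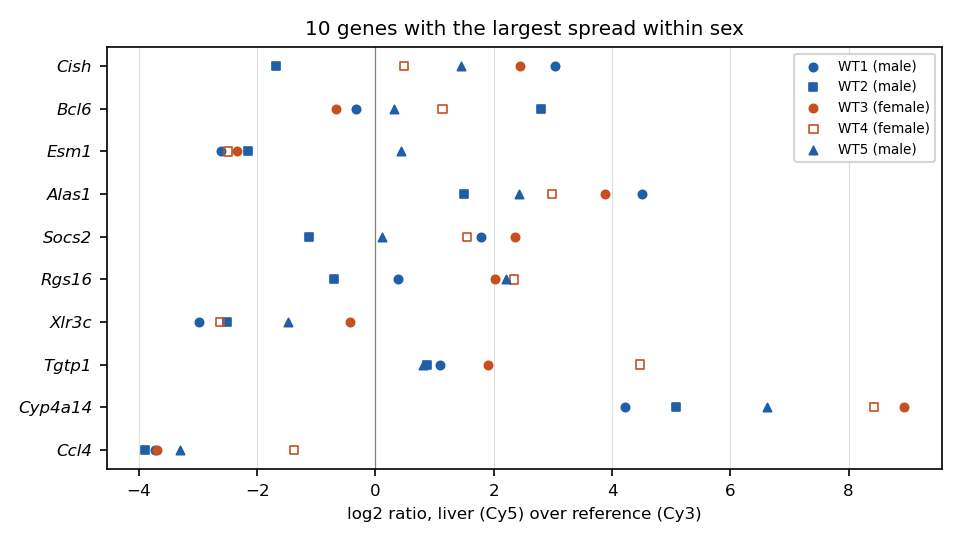
Log2 ratios of liver over reference (horizontal axis) for the 10 genes with the largest within-sex SD, 1 symbol per liver. Cish spans from -1.68 in WT 2 to 3.03 in WT 1, and in the Bcl6 row WT 2 and WT 3 hold the opposite ends.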

How the data were processed

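Liver RNA (Cy5) and reference RNA (Cy3) were hybridised to 5 two-colour Agilent arrays. The labels' protocols name a Qiagen kit for lipid tissue with DNase, and 750 ng of labelled cRNA. Spots were read with Agilent Feature Extraction 10.7, per the submitters' processing notes. The log2 ratios deposited by the authors in the series matrix were used as given; their normalization was not given in the sources used here. Against normexp and loess of the deposited scanner intensity values (limma), they had r of 0.9994 to 0.9996 and slopes of 0.998 to 0.999, which gives their scale and direction (liver over reference). Column medians were 0.00776 to 0.0230. The log10 ratio deposited in the scanner files was turned to log2 and used as an alternative. With 5 arrays, their number limits the precision.

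A probe was kept when well above background on all 5 arrays in at least 1 channel, and a gene was read by the probe with the highest mean signal over both channels. Sizes and ranks are those of that probe, and other probes of a gene could give the same call at a different size. Probes were named through RefSeq by accession (22951) or symbol (6659), by synonym (3109), or kept the file's name (8455). The probes of 9153 names did not pass and were not tested. Tests used limma 3.58.1 in R 4.3.3 with Benjamini-Hochberg adjustment. On simulated data over 18517 genes, 94.5% of genes shifted by 1.5 log2 units were recovered against 0 and 76% between sexes. The simulated noise was independent between genes and arrays, with no shared effect of a liver or slide, so these shares do not cover such effects. The livers are separate samples per the labels, which do not say more of their source.

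The 39 gene lists, 14 marker lists, 19 sets of enzyme forms and the members themselves were chosen with earlier results of these data known. Named genes were the 15 highest and 15 lowest, the 10 largest bounds each way, up to 4 called members at each end of a list, all enzyme forms, the 10 largest sex differences each way and the 10 largest spreads within sex. Kdm5d, Cdc20, Ccnb1 and Alb, outside this rule, were chosen after their values were seen. Some genes that this rule names are not reported here.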

Additional observations from a re-analysis of the deposited data

Results flagged for a closer look

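The 5 values of each of the 281 named genes were examined for a liver far from the others (gap to the nearest liver over the whole range above 0.71), which chance gives in about 1 in 20 groups. It was met by 23 genes, 18 of them through WT 4. WT 4 was the lowest liver, by log2 ratio, for Fabp1 (9.57), Akr1c6 (9.55), Ambp (9.47), Fgg (9.08), Pon1 (8.79), Serpinc1 (8.78), Aadac (8.66), Upb1 (8.44), Trf (7.66), Cyp2e1 (7.17), Baat (7.08) and Cd3e (2.27). It was the highest for Nkg7 (2.55), H2-D1 (2.48), Hk3 (0.28), Ccl4 (-1.37), Eno2 (-2.46) and Lgals3 (-3.98). WT 5 was lowest for Plbd1 (6.53) and Gls2 (5.27) and highest for the endothelial gene Esm1 (0.44). WT 1 was lowest for Hmga2 (-4.79) and WT 3 for Slc2a3 (-1.90).

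A difference between the sexes passed the limma test for 33 named genes. The values are female minus male in log2 units. Sult3a1 (7.01), Xist (6.68), Slc22a26 (6.01), Mfsd2a (4.02), Mt2 (3.74), 9030619P08Rik (3.43), Nipal1 (3.42), Cyp4a14 (3.38), Cyp2b13 (3.18), Mt1 (2.71), Igtp (2.2), Tox (1.25) and Sult1a1 (0.80) were higher in females. Cyp4a12a (-5.73), Eif2s3y (-5.58), Nat8 (-4.11), Ddx3y (-3.96), Gstp1 (-3.75), Elovl3 (-3.46), Hsd3b4 (-3.33), C6 (-2.95), Asns (-2.79), Ttc39c (-2.55), Alas2 (-2.32), Mcm10 (-1.82), C9 (-1.71), Myh2 (-1.64), Ugt2b1 (-1.63), Nudt7 (-1.54), Cyp7b1 (-1.42), Sucnr1 (-1.01), Aldoc (-0.76) and Adra1b (-0.69) were higher in males.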

How the results depend on the processing

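Normexp with loess, the filters, probe medians, centring on genes above background in both channels, slide as a random block and equal weight for the sexes kept the numbers of genes called higher or lower, and of genes differing between sexes where run, within 1.5 times. The slide block gave 327 genes higher in females and 399 higher in males, at a fitted correlation of -0.11 within slides. Each slide held 1 sex, so this setting does not separate slide from sex. Leaving out 1 liver gave 3304 to 3393 higher, 3584 to 3727 lower and 62 to 1484 differing between sexes (513 with all 5 livers), of which 60 and 513 were among the 513. The scanner log ratio and median centring of scanner signals each gave 122 between sexes, and the latter moved the split of calls to 2605 higher and 5074 lower (33.9% higher against 47.7%). Without a fold limit 7778 were higher and 8083 lower. Requiring 4 of 5 arrays gave 337 genes seen in liver only, 1603 in the reference only and 1601 mixed. For values that changed sign, the cause was not tested. The sex difference of Cyp7b1 was 0.30 by the scanner log ratio. Median centring gave list medians of -0.0030 for clock, -0.039 for interferon and -0.16 for proteasome genes. With both channels above background the T cell median was 0.19.

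Centring on the added controls was chosen after seeing the data. It shifts every gene of an array by the same amount, and gave 10978 higher, 996 lower and 14962 between sexes. List medians became 0.79 for T cell, 0.63 for platelet, 0.29 for muscle, 0.97 for neuronal and 1.07 for sex chromosome genes. Ratios became 0.18 for Fgf21, 0.0958 for Hsp90aa1, 0.26 for Hspa8, 0.11 for Ifit2, 0.25 for Oas2, 0.0433 for Bhlhe41, 0.063 for Ciart, 0.041 for Cd8b1, 0.13 for Upk1b, 1.08 for Hk3 and 0.25 for Adh7, and the sex difference of Adra1b 0.037.

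Without WT 4, 14 of the 33 named sex differences no longer passed, and without WT 3, 8. By the scanner log ratio 17 no longer passed and 1 changed sign, and with median centring 8 no longer passed. No paired analysis was possible because the knockout arrays, which share replicate numbers with these, were not used, and the sexes share none. Each ratio already sets a liver against the reference on its own array. Ratios with 1 channel above background on no array are bounds, and those of mixed detection are mean ratios without one.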
